A study of Caenorhabditis elegans with 9 samples.

Results

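The proteasome is the protease complex that degrades proteins marked with ubiquitin, and 33 genes for its subunits were followed in whole Caenorhabditis elegans exposed to graphene. The 33 genes are those among the 46284 gene IDs of the deposited table whose WormBase symbol is pas-, pbs-, rpt- or rpn- with a number. Animals of the N2 strain, wild type, were kept in liquid culture for 12 h, with 500 animals per sample. There were 3 control samples with no treatment, 3 with graphene oxide (GO, carbon sheets that carry oxygen groups) and 3 with amino-functionalized GO (GONH2). Apart from the material the labels give the groups the same description, and they state neither a dose nor the age of the animals. They also do not say whether the samples of a group were grown apart, so the spread that p values measure here may be technical.

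The complex has a barrel, the 20S core, closed by a cap, the 19S regulatory particle. In the barrel, outer rings of alpha subunits (pas genes) control entry and inner rings of beta subunits (pbs genes) cut the substrate. The cap has a base, with a ring of ATPases (rpt genes) that unfolds substrates and pushes them inward, and a lid that removes their ubiquitin. In C. elegans the transcription factor SKN-1 raises subunit transcription when the proteasome is impaired, after processing of an isoform by the protease DDI-1 and the peptide N-glycanase PNG-1. The 33 genes comprised 7 of the alpha ring, 7 of the beta ring, 6 base ATPases, 4 other base subunits (rpn-1, rpn-2, rpn-10 and rpn-13) and 9 of the lid. RPN-10 lies between base and lid and was counted here with the base.

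Levels were FPKM (fragment counts divided by transcript length and by the mapped fragments of the library). Being per length, they allow an approximate comparison between genes, and orders of level given below are of FPKM. Summed FPKM ranged from 955606 to 1010904 per library, with 12299 to 12676 genes at 1 FPKM or more. Read totals are not given, so the depth behind a value is unknown. All 33 genes passed the filter of 1 FPKM in at least 3 libraries, as did 12849 genes in all, and 0 of the 33 were listed at 0 in any library. Differences are between group means of log2(FPKM + 1) and are given with their SE. They were called at an adjusted p under 0.05 in limma's moderated test, with the Benjamini-Hochberg adjustment over the 12849 genes.

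The 33 genes lie on all autosomes, with 10 on chromosome I, 7 on II, 8 on III, 3 on IV and 5 on V, and 0 on the X chromosome. They are scattered: the closest pair, pas-4 and pbs-7, is 30917 bases apart. Predicted proteins had 231 to 260 residues in the alpha ring, 202 to 284 in the beta ring and 406 to 443 among the ATPases, and the scaffold subunits RPN-1 and RPN-2 had 981 and 965. In 11 of the 33 genes exons overlap those of another gene, on the opposite strand in 10 and on the same strand in pbs-7. The overlap exceeded 10% of the exon bases in rpn-7 (20.7%, with nemt-1 at a mean of 1.37 FPKM) and rpn-9 (10.6%, with the noncoding RNA gene T06D8.12 at 85.2 FPKM). The library kit keeps strand, but the strand setting of the counting is not given in the sources used here, so reads of rpn-9 and its partner may not be separated.

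Subunits were abundant and at similar levels. Leaving out rpn-6.2, the means over 9 libraries ran from 142 FPKM for rpn-10 to 374 FPKM for pbs-1, a 2.64-fold range, and the genes ranked 380 to 1104 among the 12849 by level. The median level was 268 FPKM in the alpha ring, 253 in the beta ring, 221 among the ATPases, 208 in the lid and 171 among the other base subunits. When the 33 genes were put in order of level, the library values of neighbouring genes overlapped in 28 of the 32 neighbouring pairs. They did not between pas-5 and pas-3, rpn-7 and rpn-12, rpn-2 and rpt-6, and rpn-10 and rpn-6.2.

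**Figure D1:**
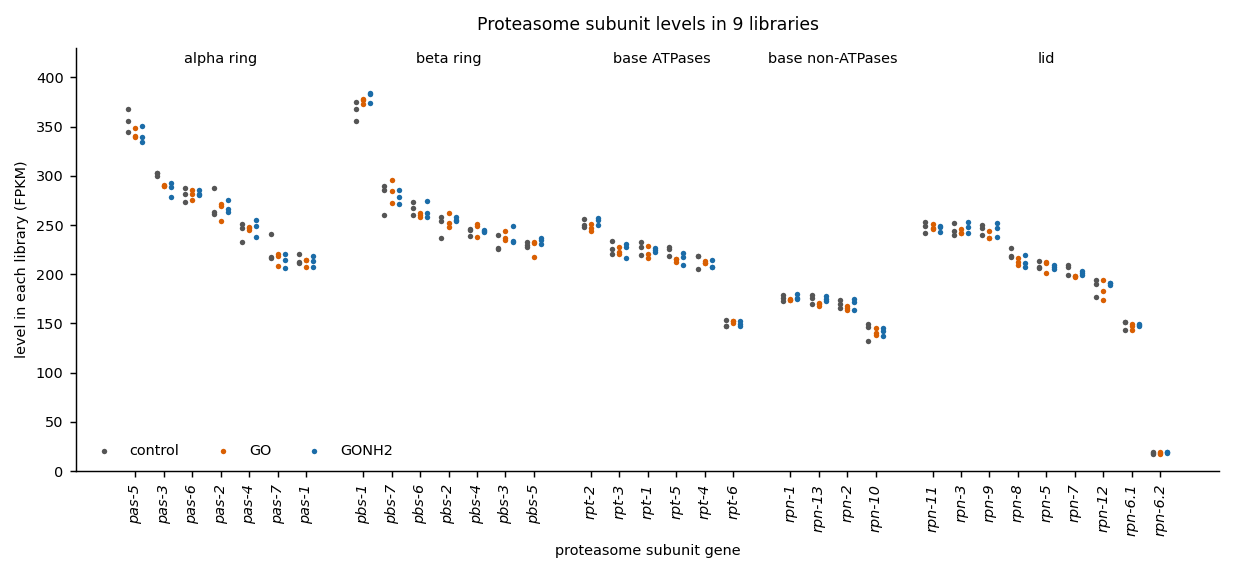
Level in FPKM of each of the 33 subunit genes in each of the 9 libraries; each point is a library, coloured by group, and genes are ordered by level within a subcomplex. The 3 groups lie on top of each other for nearly every gene, and rpn-6.2 stands far below the other 32.

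Library values are given in the order of replicates 1, 2 and 3. In the alpha ring the highest gene was pas-5 (WBGene00003926, chromosome I, 10566350 to 10567300, plus strand), at 345, 368 and 356 FPKM in control, 340.5, 349 and 339.99 with GO and 339, 351 and 334 with GONH2. The lowest was pas-1 (WBGene00003922, chromosome V, 14421566 to 14422618, minus strand), at 212, 221 and 212 FPKM in control, 214, 207 and 215 with GO and 218, 214 and 208 with GONH2. The groups overlapped for both genes, and the rest of the ring lay between them, with pas-3 at 293 ± 7.91 FPKM (SD, n = 9) and pas-4 at 246 ± 6.95.

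In the beta ring pbs-1, pbs-2 and pbs-5 correspond to the catalytic subunits, which cut after acidic, basic and hydrophobic residues. pbs-1 (WBGene00003947, chromosome IV, 1708814 to 1709745, minus strand) was the highest of all 33, at 368, 356 and 375 FPKM in control, 374, 377 and 378 with GO and 374, 384 and 384 with GONH2. By contrast pbs-5, at 228, 233 and 230.2 FPKM in control, 218, 232 and 232 with GO and 231, 234.7 and 237 with GONH2, was the lowest gene of this ring. All 3 catalytic genes overlapped between groups, and pbs-2 stood at 253 ± 7.56 FPKM (SD, n = 9). The 4 noncatalytic genes pbs-3, pbs-4, pbs-6 and pbs-7 had means of 236, 245, 264 and 280.4 FPKM.

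Among the ATPases rpt-2 was highest, at 248, 250.4 and 256 FPKM in control, 244, 247 and 251 with GO and 255, 257 and 249.7 with GONH2. The lowest, rpt-6, stood apart from the other 5 at 147, 147 and 153 FPKM in control, 153, 151 and 153 with GO and 152, 148 and 149.7 with GONH2. The 4 ATPase genes between them, rpt-1, rpt-3, rpt-4 and rpt-5, had means of 225, 225, 212 and 218 FPKM. Of the other base genes rpn-1, a scaffold that binds ubiquitin-like domains, was highest, at 172, 176 and 179 FPKM in control, 174, 174 and 175 with GO and 179.7, 176 and 175 with GONH2. The ubiquitin receptor gene rpn-10 was lowest, at 132, 149 and 147 FPKM in control, 140.1, 138 and 145 with GO and 138, 142 and 145 with GONH2. Its control values span those of all other libraries.

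In the lid the highest gene was rpn-11, which encodes the metalloprotease that removes ubiquitin chains, at 242, 253 and 249 FPKM in control, 246, 247 and 251 with GO and 249, 248 and 243 with GONH2. rpn-6 is present as a pair of paralogues, RPN-6.1 with 438 residues and RPN-6.2 with 416. rpn-6.1, whose overexpression is known to raise proteasome activity in the worm, had 143, 152 and 151 FPKM in control, 149.9, 148 and 144 with GO and 149, 148 and 147 with GONH2. rpn-6.2 had 19.1, 17.6 and 18.03 FPKM in control, 19.5, 18.4 and 17.1 with GO and 19.4, 19.9 and 18.5 with GONH2. The ratio of rpn-6.1 to rpn-6.2 was 8.16 ± 0.586 in control, 8.04 ± 0.349 with GO and 7.70 ± 0.242 with GONH2 (SD, n = 3), and the groups overlapped. How the counting shared reads between the paralogues is not given in the sources used here, so the level of the minor copy is uncertain to that extent.

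Libraries differed little. The coefficient of variation over the 9 libraries had a median of 2.41% over the 33 genes, from 1.36% for rpn-1 to 4.93% for rpn-6.2. Without rpn-6.2 the SD within groups had a median of 0.033 on the log2 scale over the 32 genes. It was 0.051 over the 725 tested genes with means between those of rpn-10 and pbs-1, and 27 of the 32 lay below that value. Over all genes tested it was 0.11. This comparison of spreads is a description and was not tested.

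**Figure D2:**
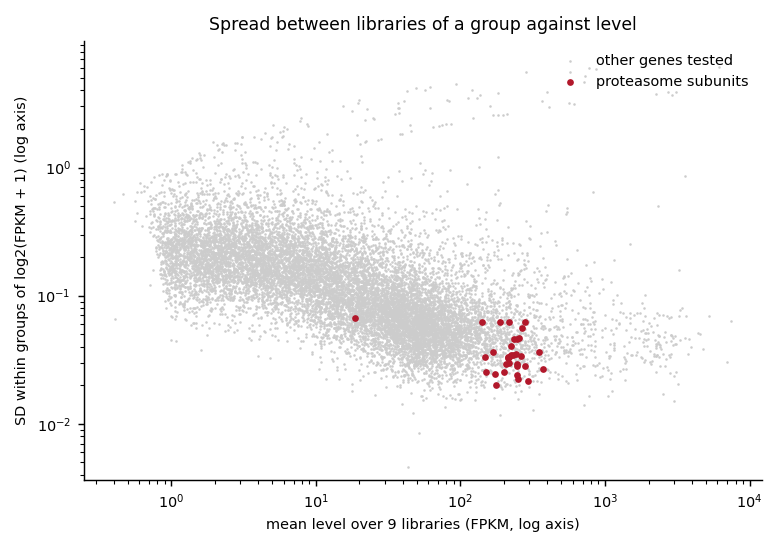
SD within groups of log2(FPKM + 1) against the mean level of each tested gene, both on log axes; grey points are other genes and red points the 33 subunit genes. Of the 32 subunit genes other than rpn-6.2, 27 lie below the median spread of 0.051 at their level.

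The 33 genes together held 0.753, 0.772 and 0.785% of the summed FPKM in the control libraries, 0.753, 0.731 and 0.743% with GO and 0.751, 0.768 and 0.767% with GONH2. Control and GO overlapped in this share, though narrowly, and GONH2 overlapped both. The ratio of the median 20S level to the median 19S level, without rpn-6.2, was 1.22 ± 0.028 in control, 1.22 ± 0.019 with GO and 1.25 ± 0.029 with GONH2 (SD, n = 3), again with overlap. That of the alpha to the beta ring was 1.08 ± 0.038, 1.05 ± 0.022 and 1.05 ± 0.027. The median level in FPKM was lower with GO than in control, without overlap, among the ATPases (216 to 218 FPKM with GO, 219 to 230.1 in control) and among the other base genes (167 to 168 FPKM with GO, 168 to 175 in control, a gap of under 1 FPKM). Among the ATPases this depends on the summary. The medians of each gene's deviation from its own mean overlapped there (−0.022 to −0.00021 with GO, −0.030 to 0.047 in control, on the log2 scale). In the alpha ring, the beta ring and the lid the median levels of GO and control overlapped. Control replicate 1 stood below the other control libraries: it held the lowest control value in 26 of the 33 genes and the lowest of all 9 libraries in 10. GONH2 replicate 3 was the lowest of its group in 21 genes and of all 9 libraries in 7. For GO replicate 1 these counts were 19 and 9. In whole animals a smaller share of the cells that express a gene cannot be told apart from less of its RNA in each cell.

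**Figure D3:**
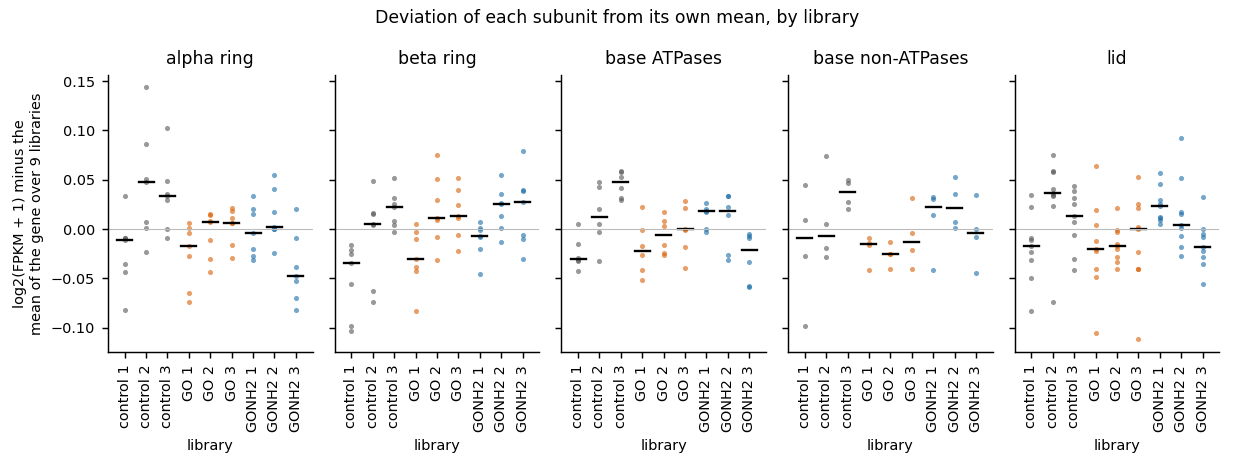
Deviation of log2(FPKM + 1) of each subunit gene from its own mean over 9 libraries, by library and subcomplex; points are genes and bars medians. The 3 groups of medians overlap in 4 panels; in the panel of the other base subunits the GO medians (−0.026 to −0.013) lie below those of control (−0.0088 to 0.037) and GONH2 (−0.0036 to 0.023). Control 1 and GO 1 each have a median below 0 in all 5 panels.

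The comparison of GO with control asks whether unmodified graphene oxide changed the transcript levels of the complex. Over all genes tested 1.26% were called, and of the 33 subunit genes 0 were called. By groups, 0 of 7 alpha, 0 of 7 beta, 0 of 6 ATPase, 0 of 4 other base and 0 of 9 lid genes passed. The smallest p was that of pas-3, an alpha-ring gene at 299.6, 303 and 303 FPKM in control, 289, 290.4 and 289 with GO and 289, 293 and 279 with GONH2. Every GO library was below every control library, yet the difference was small (−0.059 ± 0.025) and did not pass (adjusted p = 0.611). At an unadjusted p under 0.05, which 7.74% of all genes reached, pas-3 was the only one of the 33 (3.03%).

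Fitted differences lay between −0.062 (rpt-5) and 0.049 (pbs-3), that is between −4.19 and 3.43%. Every 95% confidence interval lay within −0.17 to 0.15, so that for each gene a change beyond −10.97 or 10.7% lay outside its interval. The intervals were narrow: their median half-width was 0.069, against 0.22 over all genes.

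In 4 genes the GO libraries lay below the control libraries without overlap (12.1%, where 3.12% of all genes did), and in 0 did they lie above, where 1157 of all 12849 genes did. Besides pas-3 these were rpt-5, rpn-7 and rpn-8. The ATPase gene rpt-5 had 219, 225 and 227 FPKM in control, 215, 216 and 212 with GO and 218, 221 and 209 with GONH2 (−0.062 ± 0.029, adjusted p = 0.675). The lid gene rpn-7 had 199, 209.8 and 208 FPKM in control, 198, 197 and 198 with GO and 203, 199 and 201 with GONH2 (−0.055 ± 0.026, adjusted p = 0.707). For rpn-8, which encodes the lid partner of RPN-11, the values were 219, 227 and 218 FPKM in control, 216, 213 and 209.5 with GO and 219, 211 and 207 with GONH2 (−0.055 ± 0.030, adjusted p = 0.773). In rpn-7 the closest control and GO libraries differed by less than 1 FPKM.

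Of the 33 fitted differences 24 were below 0 (72.7%), where 38.4% of all genes were. Below 0 were 5 of 7 alpha, 2 of 7 beta, 5 of 6 ATPase, 4 of 4 other base and 8 of 9 lid genes. The median was −0.018 over the 33 genes and 0.024 over all genes. By subcomplex it was −0.030 in the alpha ring, 0.025 in the beta ring, −0.023 among the ATPases, −0.027 among the other base genes and −0.014 in the lid. The 33 signs are not independent because the genes share their libraries, and the medians were not tested. The count below 0 rose to 31 of 33 under median-of-ratios scaling (51.2% of all genes), where the median was −0.047. It was 28 without control replicate 1 (38.4% of all genes), with a median of −0.036. Without control replicate 2 it was 17 (36.3% of all genes), with a median of −0.011. Without control replicate 3 it was 19 (44.2% of all genes), with a median of −0.012. Without GO replicate 1 the count was 22 (39.1% of all genes) and the median −0.011.

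**Figure D4:**
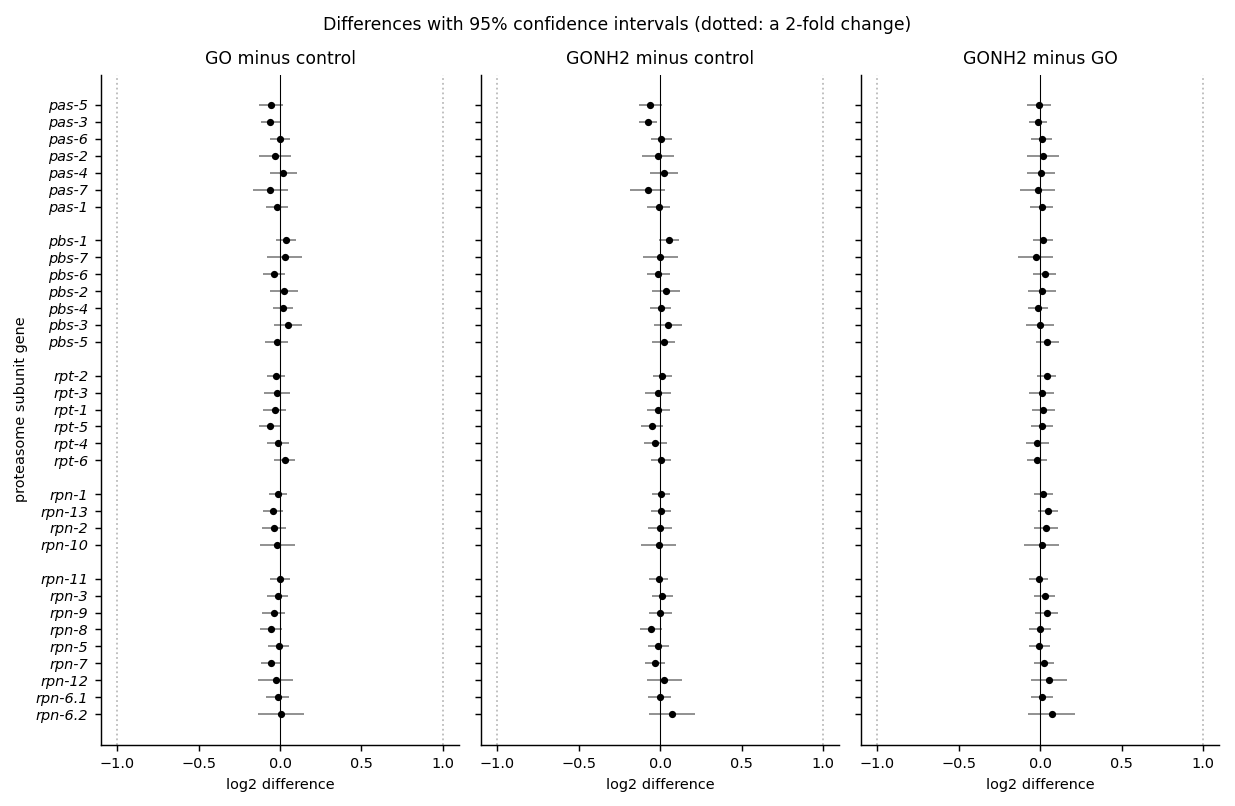
Fitted log2 difference of each subunit gene in the 3 comparisons, with its 95% confidence interval as a bar; dotted lines mark a 2-fold change. All points lie within 0.08 of 0, and 0 of the 33 genes was called in any comparison.

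GONH2 was set against control to ask the same of amino-functionalized sheets, a comparison that uses the same control libraries. Again 0 of the 33 genes were called, where 0.436% of all genes were. pas-3 once more had the smallest p, with every GONH2 library below every control library (−0.075 ± 0.025, adjusted p = 0.611). It was the single gene of the 33 without overlap (3.03% of them lower, against 3.65% of all genes, and 0 higher, against 5.18%) and the single gene with an unadjusted p under 0.05 (5.31% of all genes). The catalytic gene pbs-1 had the next smallest p, with a difference of 0.056 ± 0.027 (adjusted p = 0.984).

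Differences ran from −0.075 (pas-7) to 0.075 (rpn-6.2), and the intervals lay within −0.18 to 0.22, or −11.9 to 16.1%. The upper end belongs to rpn-6.2 (interval −0.067 to 0.22), and in the other 32 genes the interval lay within 0.2 on either side of 0. Above 0 were 16 of the 33 (48.5%, against 51.8% of all genes) and below 0 were 17, with a median of −6.27e-05 over the 33 genes and 0.0031 over all genes. Single libraries moved this in both directions. The count below 0 was 26 without control replicate 1 (median −0.021, 46.6% of all genes below 0). It was 11 without control replicate 3 (median 0.011, 53.4% of all genes) and 12 without GONH2 replicate 3 (median 0.0074, 48.7% of all genes).

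The comparison of GONH2 with GO asks whether the amino groups made a difference. Here too 0 of the 33 genes were called (0.132% of all genes), and 0 had an unadjusted p under 0.05 (4.65% of all genes). The smallest p belonged to rpn-13, a ubiquitin receptor gene, at 179, 169.8 and 176 FPKM in control, 168, 170.04 and 171 with GO and 175, 177 and 173 with GONH2. All GONH2 libraries were above all GO libraries (0.046 ± 0.026, adjusted p = 0.9997), and both groups overlapped control. rpn-7 was the other gene whose GONH2 and GO libraries did not overlap (0.024 ± 0.026, the closest at 198.9 FPKM with GONH2 and 198.3 with GO). In both GONH2 was higher, which makes 6.06% of the 33 genes against 2.93% of all genes, and 0 were lower without overlap (7.09% of all genes).

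Intervals for GONH2 minus GO lay within −0.14 to 0.21, or −9.02 to 15.7%. A p that misses the threshold does not show that the materials act alike. These intervals give the differences that the FPKM leave room for without further scaling, and the fitted differences move with scaling. Above 0 were 22 of the 33, with a median of 0.011, and below 0 were 11 (33.3%, against 62.9% of all genes, whose median was −0.024). Under median-of-ratios scaling 1 of the 33 was below 0 (48.7% of all genes) and the median was 0.039. Without GONH2 replicate 3 the count below 0 was 7 (60.8% of all genes) and the median 0.023. Other libraries moved it the other way. The count was 14 without GO replicate 1 (61.8% of all genes, median 0.0093). It was 13 without GONH2 replicate 1 (62.8% of all genes, median 0.0099) or 2 (58.6%, median 0.0064). In the F test over the 3 groups together 0 of the 33 were called, where 0.957% of all genes were. At an unadjusted p under 0.05 in that test there was 1 of the 33, pas-3 (adjusted p = 0.677), where 6.50% of all genes were.

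Genes that act with the proteasome were followed as 7 lists of 59 genes in all, and all 59 passed the filter. In each of the 3 comparisons 0 of the 59 were called, where the shares of all genes given above (1.26, 0.436 and 0.132%) would put less than 1 gene in a list of this size. At an unadjusted p under 0.05 there were 3 with GO (5.08%, against 7.74% of all genes), 4 with GONH2 (6.78%, against 5.31%) and 1 between the materials (1.69%, against 4.65%), all near or below the shares of all genes. Without overlap, 3 were lower with GO than in control (5.08%, against 3.12% of all genes). Another 3 were higher (5.08%, where 1157 of all 12849 genes were), ubql-1 with its listed zeros among them. With GONH2 5 were lower (8.47%, against 3.65%) and 7 higher (11.9%, against 5.18%), again against the same control libraries. Between the materials 3 were higher with GONH2 (5.08%, against 2.93%) and 5 lower (8.47%, against 7.09%).

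Upstream of the proteasome, the polyubiquitin gene ubq-1 had 681, 681 and 692 FPKM in control, 631, 645 and 660.4 with GO and 624, 667 and 667 with GONH2. All libraries with either material were below the control libraries, but the differences of −0.085 ± 0.033 and −0.070 ± 0.033 did not pass (adjusted p = 0.552 and 0.975). For uba-1, the ubiquitin-activating enzyme gene, they were −0.0030 and 0.0034. Among 12 genes for E2 enzymes, which carry ubiquitin, ubc-20 had the smallest F test p, with 0.087 ± 0.030 for GO (adjusted p = 0.424) and 0.030 for GONH2. Among 18 E3 ligase and scaffold genes it was sel-11, a ligase of the endoplasmic reticulum, with 0.0054 for GO and 0.071 ± 0.025 for GONH2 (adjusted p = 0.681). Among 10 genes of the unfoldase CDC-48 and its cofactors it was ubxn-3, with −0.029 and −0.074 (adjusted p = 0.926 and 0.832).

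The regulators also showed no call. skn-1, with 99.0, 96.5 and 98.0 FPKM in control, 98.6, 99.3 and 93.7 with GO and 103.9, 101 and 97.2 with GONH2, differed by −0.0094 ± 0.035 for GO and 0.041 ± 0.035 for GONH2. ddi-1, with 91.6, 95.5 and 93.8 FPKM in control, 97.5, 97.6 and 88.7 with GO and 98.3, 102 and 94.4 with GONH2, differed by 0.013 and 0.067. For png-1 the differences were 0.052 and 0.0019. The groups overlapped for these 3 genes, and transcript levels do not show how much SKN-1 protein was processed. sel-1, a membrane protein of the same degradation pathway as SEL-11, had the smallest F test p of the 6 regulators (0.065 and 0.016).

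Of the factors bound to the proteasome, the deubiquitinase genes usp-14 and ubh-4 differed by −0.037 and 0.029 with GO, and by −0.012 and −0.019 with GONH2. The small lid subunit gene dss-1, which has no rpn symbol, differed by 0.0070 and 0.041, and the base assembly gene psmd-9 by −0.0030 and −0.066. psme-3, a homologue of the activator PA28 gamma, differed by 0.0027 and 0.035, and ecps-1, a homologue of the adaptor Ecm29, by −0.011 and 0.029. The shuttle gene rad-23 differed by 0.056 and 0.047. aip-1, whose mammalian relative adapts the proteasome to arsenite, differed by 0.039 and 0.029.

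The shuttle gene ubql-1 was listed at 0 in control replicates 2 and 3 and in GONH2 replicate 2, and at 124 to 129 FPKM in the other 6 libraries. A listed 0 can be a failed estimate, so no fold is given; with the zeros left out, control would rest on 1 library.

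**Figure D5:**
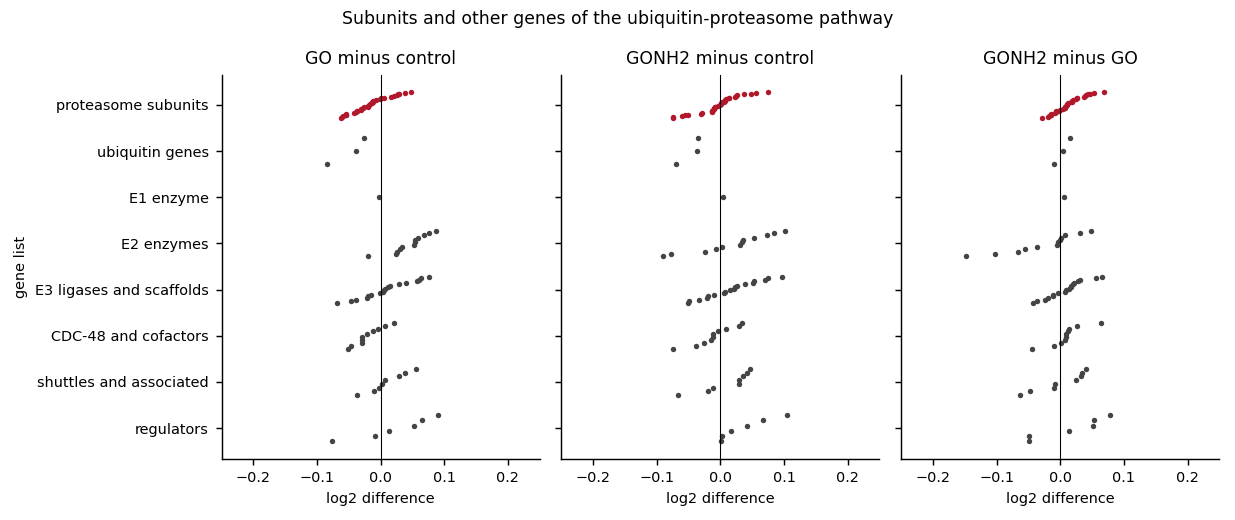
Fitted log2 differences of the 33 subunit genes (red) and of 58 other genes of the pathway (grey) in the 3 comparisons, each point a gene; ubql-1 is left out because of its listed zeros. All points lie within 0.15 of 0.

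Markers of 7 tissues were present, as labelled for whole animals, and their part in the differences was not tested. The 13 intestine markers summed to 3044 to 3110 FPKM in control, 3512 to 3604 with GO and 3373 to 3562 with GONH2. These sums did not overlap between control and either material. The medians of each gene's deviation from its own mean ran from −0.14 to 0.0097 in control, on the log2 scale. They did not overlap those with GO (0.042 to 0.084) but did overlap those with GONH2 (−0.013 to −0.0014). Of these 13 genes 2 were called with GO (1.26% of all genes were) and 1 with GONH2 (0.436% of all genes). The other 6 lists had 5 to 19 tested genes each, and 0 of these were called. The lists are short, and whether the intestine differs from the other tissues was not tested. The 19 germline markers summed to 7080 to 7293 FPKM in control, 7040 to 7137 with GO and 7066 to 7378 with GONH2, and overlapped. Their median difference was −0.018 with GO and 0.0055 with GONH2. Sums of the muscle, hypodermis, neuron and pharynx markers also overlapped between control and each material. The median difference of the 8 tested pharynx markers was −0.22 with GO and −0.14 with GONH2. That of the intestine markers was 0.087 and 0.018. The 19 sperm markers summed to 8.97 to 20.5 FPKM in control, 12.4 to 23.8 with GO and 8.79 to 10.3 with GONH2. Their sums did not overlap between GO and GONH2, but these levels are low, and 5 of the 19 passed the filter.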

How the data were processed

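The deposited values are FPKM made by the authors, 1 column per library, for 46284 gene IDs. RNA was extracted with TRIzol and RNeasy columns and sequenced as paired-end stranded TruSeq libraries on an Illumina HiSeq, per the labels' protocols. No aligner, counter, build or annotation is named: each is not given in the sources used here. The submitters' processing notes name DESeq2 without saying what for, and it was not run here because the values are not counts.

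IDs were named from a table that matched 43325 of them, and positions come from Ensembl release 115 (WBcel235). Values became log2(FPKM + 1), and a gene was kept at 1 FPKM or more in 3 or more of the 9 libraries. limma 3.58.1 (R 4.3.3) was fitted to 9 libraries with group as the only term, with empirical Bayes moderation along the trend of variance on level (2.47 prior and 6 residual degrees of freedom), and adjusted by Benjamini-Hochberg over all genes. The fit was tested on simulated data with independent noise in each gene, so that test does not cover genes that vary together. The 33 genes and all lists were chosen with earlier results of these data known. Every subunit may be named; per-library values are given for the smallest p of each comparison, the highest and lowest level of each subcomplex, and paralogues. Other pathway genes are named by smallest F test p per list, plus skn-1, ddi-1, png-1 and the bound factors. Per-library values of subunit genes without overlap were added after their values were seen; pathway genes without overlap are counted but not all named. Alternatives covered pseudocount, filter, scaling, trend, libraries fitted, replicate block, zeros and leaving out each library. Figures used matplotlib 3.10.9 under Python 3.11.15.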

Additional observations from a re-analysis of the deposited data

How the results depend on the processing

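Under 17 alternatives per comparison the number of subunit genes called stayed at 0, and the smallest adjusted p among them was 0.442 to 0.94 for GO versus control, 0.565 to 1 for GONH2 versus control and 0.877 to 1 for GONH2 versus GO. The F test also called 0 of them in each fit that gave one. The signs of single subunit differences are not calls: up to 9, 9 and 10 of the 33 changed sign in an alternative. Median-of-ratios scaling moved the median of the 33 genes to −0.047 for GO versus control and 0.039 for GONH2 versus GO. Leaving out each library in turn gave medians of −0.036 to −0.011, −0.021 to 0.011 and 0.0064 to 0.023 for the 3 comparisons.

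The count of all genes called, 56 for GONH2 versus control, was 32 with no filter, 27 without the mean-variance trend, 33 with only the 6 libraries compared and 29 with the replicate block. For GONH2 versus GO, 17 became 9 without the trend and 8 with the replicate block. Leaving out each library gave 107 to 162 genes for GO versus control (162 with all; lowest without GO replicate 2), 25 to 54 for GONH2 versus control and 1 to 20 for GONH2 versus GO. The second count fell over 1.5 times without control replicate 1 (27) or GONH2 replicate 1, 2 or 3 (25, 27 and 36), and the third without GO replicate 1 or 2 (9 and 7) or GONH2 replicate 1, 2 or 3 (11, 8 and 1). Replicate numbers are not stated to pair samples, and deviations of same-numbered libraries correlated at −0.17 to 0.13, so the block was not used as the main design; it changed no call of a subunit gene. With FPKM alone, no counting error can be given.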

Other observations

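Shorter subunit genes had higher levels. Over the 32 genes without rpn-6.2 the Spearman correlation of mean FPKM with exonic length was −0.61. It was −0.34 within the 14 genes of the 20S core (801 to 1059 exonic bases) and −0.19 within the 18 of the 19S particle. FPKM are divided by length and all values come from the same 9 libraries, so this is a description across genes, with no test.

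The 33 genes also varied together between libraries. Over the 528 pairs the correlation of log2 levels across the 9 libraries had a median of 0.30, and 76.5% were above 0. Single pairs ran from −0.92 to 0.90. The mean was 0.25, against 0.033 over all pairs of tested genes. Those genes were not matched to the 33 by level, so other abundant genes may vary together as much. The median was 0.37 for pairs within a subcomplex and 0.29 for pairs between subcomplexes, and highest, at 0.49, for the 15 pairs of ATPase genes. After the group means were removed the median over all pairs was 0.34. The pairs share libraries and their scaling, so these values are a description.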
